A study of Mus musculus with 4 samples.

Results

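The genes described here encode the proteins of the cytoplasmic ribosome. They were chosen by symbol: every symbol that starts with Rpl or Rps followed by a digit, together with Rplp0, Rplp1, Rplp2 and Rpsa. The 10 symbols that start with Rps6k, which are kinases of the S6 kinase families, and 6 symbols marked as pseudogenes by -ps were left out. This gave 86 of the 23906 symbols in the files. Of these, 33 are named for the small (40S) subunit and 52 for the large (60S) subunit. The remaining member, Rps19bp1, was caught by its symbol only: it encodes a protein that binds Rps19 and is not a part of the ribosome.

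RNA was sequenced from LSK-SLAM cells, the surface phenotype used to enrich haematopoietic stem cells (HSCs), of mice that carry the BRE-GFP transgene. In these mice GFP is made when BMP signals through Smad proteins to a BMP-responsive element, so that GFP+ cells were BMP-activated when taken and GFP- cells were not. The 4 groups were GFP+ and GFP- cells of the fetal liver (FL) at embryonic day 14, and GFP+ and GFP- cells of adult bone marrow (BM), each with 1 library. All 4 groups carried the transgene on a C57BL/6 background, from matings of heterozygous transgenic males with wild-type females, and the number of animals behind a library is not given in the sources used here. The reporter reads signalling at the moment of cell collection, the data shown are of 1 of 2 transgenic lines per the methods, and the age of the adult mice is not stated in the labels. No group has a replicate, so no difference between 2 libraries has a replicate check.

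Each ribosome holds 1 copy of nearly every ribosomal protein, and the genes are transcribed together at high levels in all growing cells. Their mRNAs begin with a run of pyrimidines, the 5′ terminal oligopyrimidine or TOP motif, through which mTOR signalling sets how much of them is translated. In blood formation the family is known for Diamond-Blackfan anaemia, in which loss of 1 allele of a ribosomal protein gene leads to a failure of red cell production, and adult HSCs are known for a low rate of protein synthesis.

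The promoter sequences of 8 members are shown first, because the pyrimidine run at the start of transcription is the feature by which translation of this family is controlled. The windows are from RefSeq (GRCm38.p6), which holds 65 of the 86 members in 77 windows. Each covers 40 bases before the annotated start and 25 bases from it on, read on the strand of the gene, and capitals mark runs of at least 5 pyrimidines (C or T). Rps27 lies on the minus strand (chr3:90213624-90213688), Rpl38 on the plus strand (chr11:114668540-114668604), Rpl35 on the minus strand (chr2:39005107-39005171) and Rps6 on the minus strand (chr4:86857343-86857407). Rpl4 (chr9:64173347-64173411), Rpl22l1 (chr3:28805468-28805532) and Rps2 (chr17:24720023-24720087) lie on the plus strand and Rpl7l1 (chr17:46782632-46782696) on the minus strand.
Rps27: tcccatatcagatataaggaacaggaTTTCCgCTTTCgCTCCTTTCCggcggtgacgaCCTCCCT
Rpl38: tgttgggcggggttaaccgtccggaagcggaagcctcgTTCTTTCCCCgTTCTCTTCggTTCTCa
Rpl35: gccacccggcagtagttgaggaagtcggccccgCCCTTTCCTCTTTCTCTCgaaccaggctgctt
Rps6: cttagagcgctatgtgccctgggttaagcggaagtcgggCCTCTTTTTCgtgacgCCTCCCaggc
Rpl4: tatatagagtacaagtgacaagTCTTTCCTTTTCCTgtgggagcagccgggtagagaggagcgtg
Rpl22l1: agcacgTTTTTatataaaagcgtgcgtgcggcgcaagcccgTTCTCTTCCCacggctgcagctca
Rps2: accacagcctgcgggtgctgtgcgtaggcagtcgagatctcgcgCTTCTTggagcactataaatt
Rpl7l1: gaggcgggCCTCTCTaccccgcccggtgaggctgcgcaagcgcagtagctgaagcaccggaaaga

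A run of at least 8 pyrimidines on the gene's strand, within 25 bases of the annotated start on either side, was in 44.2% of the 77 member windows and in 19.7% of all 32851 windows. The letters CTTTC in the same window were in 24.7% of member windows and 6.75% of all, and their reverse complement GAAAG in 9.09% and 6.10%. The letters CCGGAAG or CTTCCGG, the core bound by Ets family factors, were anywhere in the 250 bases before and 50 bases after the start in 35.1% of member windows and 8.86% of all. For CACGTG, the E-box that Myc binds, the shares were 10.4% and 7.15%, and for TATAA or TTATA in the 50 bases before the start they were 6.49% and 6.36%. A match of letters is a description of the window and no evidence of binding. Among members with a window, the 32 with such a run of at least 8 and the 29 with none that long had nearly the same median differences, at -0.95 and -1.02 (log2) for FL against BM in GFP+ cells and -0.79 and -0.78 in GFP- cells.

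The values are FPKM, that is, fragments counted on a gene and scaled to the length of its transcript and to the size of the library, so that they can be compared between genes. They sum to between 541453 and 1000848 per library. Read counts per gene are not in the files, so no interval was put on a single FPKM. The tissue labels were checked against 6 genes of the fetal programme (Lin28b, Hmga2, Igf2bp1, Igf2bp3, H19 and Igf2), whose FPKM summed to 521 and 148 in the FL libraries but to 6.96 and 2.24 in those of the BM (GFP+ before GFP- here and below). The GFP labels cannot be checked, since the files hold no row for the reporter. There is a doubt about them, because the study's plots may show the libraries in another order than the labels do. The labels were kept here, and an exchange of GFP+ and GFP- within a tissue would turn the sign of every GFP difference given below. Markers of mature blood cells were high in the BM libraries, although the gate should remove such cells. The summed FPKM of 8 granulocyte genes was 576 and 283 for FL cells but 60509 and 15587 for BM cells, and all 8 were above 0 in both BM libraries. For 7 erythroid genes the sums were 992, 907, 20421 and 2842 in the same order, and for 6 B cell genes 96.3, 43.5, 3060 and 857. Of the genes behind the gate, Kit was at 102, 150, 22.2 and 76.6, Ly6a (Sca-1) at 19.7, 46.3, 286 and 146 and Slamf1 (CD150) at 6.47, 12.6, 4.74 and 10.7, while Cd48, whose protein is gated out, was at 51.4, 17.4, 267 and 126. The stem cell genes Cd34, Procr, Mecom, Hlf and Gata2 were all lowest in BM GFP+ cells, with Procr listed at 0 there. Hepatocyte genes, 6 in the list, summed to 450, 67.9, 79.8 and 54.5. The BM GFP+ library therefore stands apart, and the comparison of FL GFP- with BM GFP- cells is the version of each tissue result without it.

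The ribosomal protein genes were among the most abundant transcripts of every library. They held 10.95% and 11.50% of the summed FPKM in FL cells and 13.95% and 14.76% in BM cells. Both BM libraries gave a higher share than both FL libraries, and in each tissue the GFP- library was slightly above the GFP+ library. Of the 100 symbols with the highest FPKM, 34, 41, 39 and 42 were members, in the same order. The summed FPKM of the 60S genes was 1.54 and 1.47 times that of the 40S genes in FL and 1.38 and 1.42 times in BM cells.

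The level of single members covered a wide range. A level of 1 FPKM or more in 2 or more libraries was reached by 83 of the 86 members, of which 75 were at 100 or more in all 4 libraries (709 symbols of all were) and 24 were at 1000 or more. The median over these 83 was 745 and 686 in FL and 1522 and 1162 in BM cells. The highest mean level was that of Rplp0, the base of the P stalk that recruits elongation factors, with an FPKM of 3299 and 2879 in FL and 4322 and 4541 in BM cells. Rpl13, Rpl32, Rps9 and Rpl41 followed. The order of members by level was much alike in the 4 libraries, with Spearman's rho between 0.916 (FL GFP+ and BM GFP+) and 0.987 (FL GFP- and BM GFP-) over 83 genes, which share their library and their transcript lengths across these pairs.

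**Figure D1:**
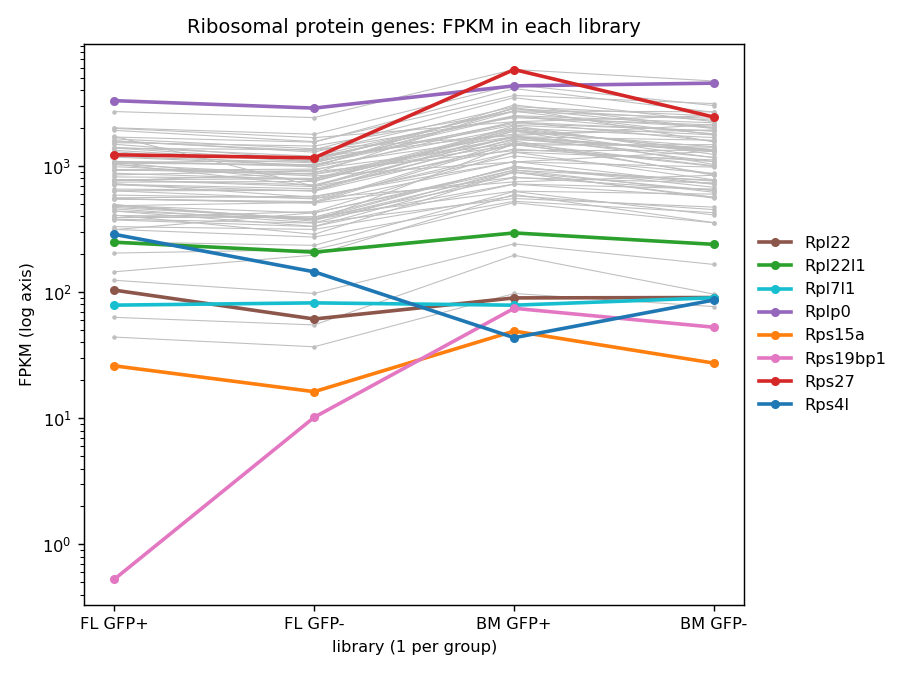
FPKM (log axis) of the 83 ribosomal protein genes that reached 1 FPKM in 2 or more libraries, in each of the 4 libraries (1 per group); each line joins the values of 1 gene. Most lines run in parallel and step up from FL to BM, while Rps4l steps down, Rpl7l1 and Rpl22 stay near 100, and Rps27 reaches 5819 in BM GFP+ cells; the step is smaller when libraries are set to the same FPKM total.

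At the low end stood 3 paralogues that other work places in single tissues. Rpl10l, known from testis, was listed at 0 except in BM GFP+ cells, where its FPKM was 0.443. Rpl39l, also known from testis, was listed at 0 except in FL GFP- (0.853) and BM GFP+ cells (1.61). Rpl3l, known from heart and skeletal muscle, was listed at 0 except in FL GFP- cells (0.599). These are the 3 members that did not pass the filter on low values. Rps15a, a small subunit protein, was the lowest of the remaining ribosomal proteins in both FL libraries and in BM GFP- cells, with 26.1 and 16.3 in FL and 49.2 and 27.4 in BM cells.

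The first comparison asked how the family differed between FL and BM cells of equal GFP state. In GFP+ cells, 80 of 83 members were lower in the FL, with a median log2 difference of -1.02 (2.02-fold higher in BM), against -0.086 over all 11707 symbols that passed the filter. In GFP- cells, 82 of 83 were lower in the FL, with a median of -0.77 (1.71-fold higher in BM), against -0.063 over all symbols. The direction of both medians held, at -0.39 and -0.34, when each library was set to the same FPKM total, a scaling that moved the median of all symbols by 0.48 and 0.39 upward. Relative to the median of all symbols, the member medians were -0.93 and -0.71 on the deposited scale and -0.79 and -0.67 with equal totals. With equal totals 64 and 78 of the 83 members were lower in the FL. The granulocyte, erythroid and B cell markers given above move with this comparison, most of all in BM GFP+ cells, and their part in the result was not tested. In bulk samples, fewer cells of a type and less RNA per cell cannot be told apart.

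The differences of the members lay in a narrow range. Their interquartile range was 0.20 log2 units between the GFP- libraries, beside 1.15 for all symbols and 0.61 for the 634 other symbols at an FPKM of 100 or more in all 4 libraries, whose median was -0.44. In GFP+ cells the interquartile range of the members was 0.65, and these other abundant symbols had a median of -0.26 and a range of 1.03. The subunits had nearly the same medians: the 40S median was -1.02 in GFP+ and -0.78 in GFP- cells, and the 60S median -0.99 and -0.77. On the deposited scale both FL libraries were below both BM libraries for 78 of the 83 members, where 27.6% of all symbols tested showed that order. With equal FPKM totals 19 of the 83 were higher in FL GFP+ than in BM GFP+ cells, so the count is lower there. The share of all symbols with this order was not taken on that scale. The exceptions on the deposited scale were Rpl7l1, Rpl22l1, Rpl22, Rpl13a and Rps4l. On that scale only Rps4l had both FL libraries above both BM libraries, an order shown by 21.7% of all symbols.

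**Figure D2:**
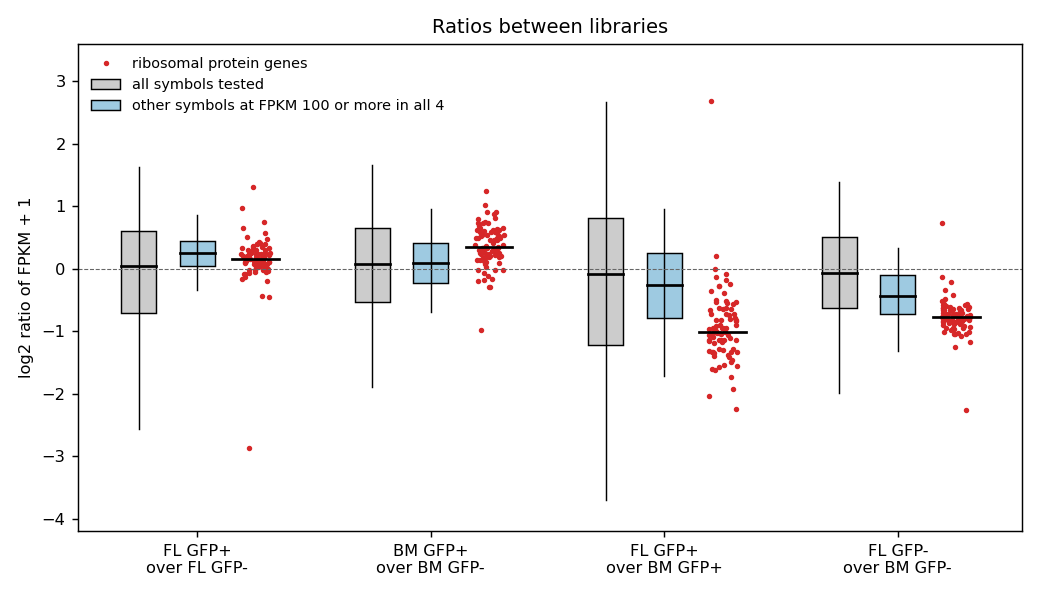
Log2 ratio of FPKM + 1 between 2 libraries in the 4 comparisons, for all symbols tested (grey), for the other symbols at an FPKM of 100 or more in all 4 libraries (blue) and for each ribosomal protein gene (red points); boxes span the interquartile range, whiskers run from the 5th to the 95th percentile, and black lines mark medians. The red points lie at -1.02 and -0.77 at the median in the tissue comparisons and at 0.16 and 0.35 in the GFP comparisons, where both medians turn negative with equal FPKM totals and the FL one also with equal upper quartiles; Rps19bp1 at -5.63 is beyond the axis.

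The study called genes for GFP state where the FPKM of 1 fraction was more than 2 times that of the other in both tissues. With the same 2-fold line drawn between tissues, 44 of 85 members were lower in FL GFP+ than in BM GFP+ cells, where 36.0% of all symbols were, and 1 (Rps4l) was higher, where 27.0% were. In GFP- cells 10 of 85 were lower in the FL (29.2% of all symbols) and 2 were higher (21.9%), the latter being Rpl39l and Rpl3l with FPKM under 1. These counts depend on the scaling: with equal FPKM totals 8 members were lower in the FL in GFP+ cells, where 29.2% of all symbols were, and 1 in GFP- cells, where 24.7% were. The 10 on the deposited scale were Rps15, Rpl19, Rpl23a, Rpl36al, Rps19bp1, Rps3a1, Rps27, Rpl21, Rps9 and Rplp1. In the GFP- pair Rps9 and Rplp1 (2.01-fold) were just inside the line and Rpl13 (1.95-fold) and Rpl30 (1.97-fold) just outside. In the GFP+ pair Rps14 (2.02-fold) and Rpl17 (2.03-fold) were just inside and Rpl28 (1.99-fold) and Rps3a1 (1.95-fold) just outside.

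A limma fit over all 4 libraries, with GFP state as a block and 1 residual degree of freedom, called 1 of 83 members between tissues at an adjusted p under 0.05 (Benjamini-Hochberg over 11707 symbols). This was Rpl36al, lower in the FL by limma's log2 estimate of -1.42 ± 0.30 (SE), with an adjusted p of 0.0489. Over all symbols, 2.17% were called lower and 0.290% higher in the FL. At an unadjusted p under 0.05 there were 62 of 83 members (74.7%) against 17.2% of all symbols. The call of Rpl36al was lost under each of the 6 other settings tried, and with equal FPKM totals 7 of the members had an unadjusted p under 0.05. Rps27 had an estimate of -1.66 ± 0.37 and an adjusted p of 0.0610, and Rps4l one of 1.71 ± 0.47 and an adjusted p of 0.114 by limma.

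Rps27, a zinc finger protein of the small subunit, had the largest difference toward the BM in GFP+ cells among ribosomal proteins. Its FPKM was 1228 and 1160 in FL and 5819 and 2442 in BM cells. The FL libraries were alike and both BM libraries were higher, the BM GFP+ one by far. Rps21 was at 145, 197, 595 and 356, and Rps29, another zinc finger protein of the small subunit, at 765, 877, 2908 and 1550, in the same order. Rpl39, a short protein that lines the exit tunnel, was at 390, 435, 1290 and 778. In all of these the BM GFP+ library was the highest and in Rps21, Rps29 and Rpl39 the FL GFP+ library was the lowest. The ratio of BM GFP+ to FL GFP+ cells was 4.74 for Rps27, 4.10 for Rps21, 3.80 for Rps29 and 3.31 for Rpl39.

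In GFP- cells the largest differences were those of Rps19bp1, Rpl36al, Rps3a1, Rps27 and Rpl19. Rpl36al, an intronless copy of Rpl36a that is itself a working gene, was at 495 and 365 in FL and 1502 and 864 in BM cells. Rps3a1, of the small subunit, was at 1406, 1197, 2738 and 2689, so that its BM libraries were nearly equal. Rpl19, of the large subunit, was at 1489, 1124, 2858 and 2309. For these genes all FL values lay below all BM values.

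At the other end were members whose FL and BM values overlapped or nearly met in GFP+ cells. Rpl3, which lies at the peptidyl transferase centre, had an FPKM of 1642 and 1370 in FL and 1742 and 2131 in BM cells. Rps2, at the mRNA entry of the small subunit, was at 989, 833, 1078 and 1310. In both genes the BM GFP+ library was below the BM GFP- library, the reverse of Rps27. Rpl22, an RNA-binding protein with a known role in T cell development, was at 104, 61.3, 90.1 and 90.7, and Rpl7l1, a paralogue of Rpl7 linked to ribosome assembly, at 78.9, 82.3, 78.9 and 90.4. With equal FPKM totals all 4 are higher in FL GFP+ than in BM GFP+ cells, so no direction is given for them.

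**Figure D3:**
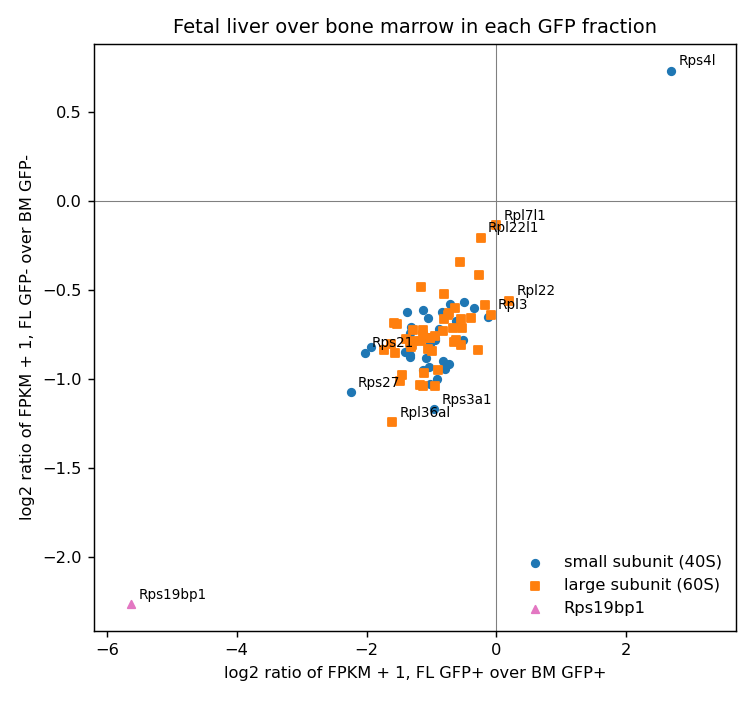
Log2 ratio of FPKM + 1 of FL over BM, in GFP+ cells (horizontal axis) and in GFP- cells (vertical axis), for the 83 ribosomal protein genes; circles are small subunit genes, squares large subunit genes and the triangle is Rps19bp1. Nearly all points lie at the lower left, 80 of 83 below 0 on the horizontal and 82 of 83 on the vertical axis (64 and 78 with equal FPKM totals), with Rps4l in the upper right and Rps19bp1 far to the lower left.

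The 2 tissue comparisons share no library. Over 83 members Pearson's r between them was 0.83 and Spearman's rho 0.53, and r was 0.53 over 81 members without Rps19bp1 and Rps4l, the points at the ends. This is a description across genes, which are not independent replicates and share transcript length and library chemistry.

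Rps4l was the member with the opposite pattern. Its FPKM was 287 and 145 in FL and 43.6 and 86.7 in BM cells. The FL value was 6.60 times that of the BM in GFP+ and 1.67 times in GFP- cells, and the direction is the same with equal FPKM totals. Rps4l is the mouse autosomal relative of Rps4x, and RefSeq lists it as a transcribed pseudogene. Its annotated reading frame was 80.1% identical to that of Rps4x, and reads common to both fell under the multi-read correction that the authors applied. Rps19bp1, the member that is no ribosomal protein, was at 0.529, 10.2, 74.5 and 52.7, so that it was near absent from FL GFP+ cells and well above that in the BM. Its FL GFP+ value is under 1 FPKM, so its ratios to that library are imprecise.

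Paralogue pairs were compared by the share that the paralogue took of the FPKM of the pair, which no scaling between libraries can change. Rpl22l1 exceeded Rpl22 in every library, with 70.6% and 77.2% of the pair in FL and 76.6% and 72.5% in BM cells, and the FL and BM shares overlapped. Rpl22l1 itself was at 249, 208, 295 and 239. The share of Rps4l in the pair with Rps4x was 15.5%, 9.86%, 1.77% and 3.94%, with both FL values above both BM values. The share of Rps27l, a paralogue of Rps27 that is a known p53 target, was 14.3%, 15.8%, 8.09% and 12.7%, again higher in both FL libraries. Rps27l was not higher in FL by level, at 204, 217, 512 and 354, and the share followed the level of Rps27. Rpl36al took 50.5%, 41.5%, 58.0% and 54.6% of the pair with Rpl36a, with both BM values above both FL values. The share of Rpl7l1 in the pair with Rpl7 was 6.01%, 6.51%, 4.22% and 4.47%. Identity between the reading frames of these pairs ran from 60.4% (Rpl7 and Rpl7l1) to 87.9% (Rpl36a and Rpl36al).

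**Figure D4:**
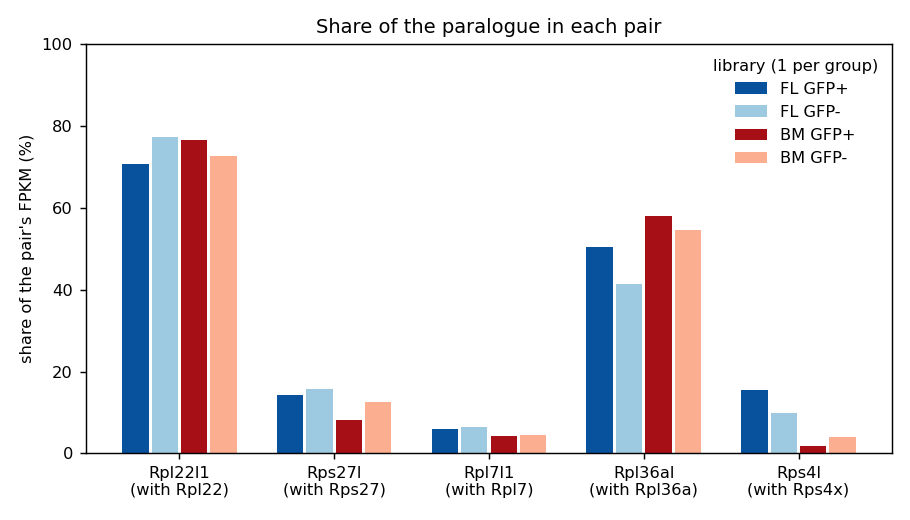
Share (%) of the paralogue in the summed FPKM of a pair of ribosomal protein genes, by library (1 per group), for the 5 pairs in which it was above 1% in any library; each bar is 1 library, without error since there are no replicates. Rpl22l1 holds between 70.6% and 77.2% of its pair in all libraries, while the share of Rps4l lies between 9.86% and 15.5% in the FL and from 1.77% to 3.94% in the BM.

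The second comparison asked how the family differed between GFP+ and GFP- cells of 1 tissue. In the FL, 67 of 83 members were higher in GFP+ cells, with a median log2 difference of 0.16 against 0.040 over all symbols and 0.25 over the 634 other abundant symbols, but with equal FPKM totals the median was -0.095 and 24 members were higher, and with equal upper quartiles it was -0.061. In the BM, 72 of 83 were higher in GFP+ cells, with a median of 0.35 against 0.087 and 0.090, but with equal totals the median was -0.10 and 37 were higher. Equal totals moved the median of all symbols by -0.18 in the FL and -0.40 in the BM. Relative to the median of all symbols, members stood at 0.12 (FL) and 0.26 (BM) on the deposited scale and 0.043 and 0.21 with equal totals. The FL difference is thus close to that of all symbols and its sign depends on the scaling. Hepatocyte genes move with the FL comparison, at a sum of 450 in GFP+ and 67.9 in GFP- cells with 5 of 6 past 2-fold, and their part in the result was not tested. The BM comparison holds the BM GFP+ library, whose granulocyte and erythroid marker sums of 60509 and 20421 compare with 15587 and 2842 in the other, and their part in the result was not tested.

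Few members passed the 2-fold rule. In the FL, 1 of 85 was higher in GFP+ cells (Rpl13a) where 16.5% of all symbols were, and 3 were lower (Rps19bp1, Rpl39l and Rpl3l) where 38.4% were. In the BM, 4 were higher in GFP+ cells (Rps27, Rpl37, Rpl10l and Rpl39l) where 18.0% were, and none of 85 was lower where 36.7% were. With equal FPKM totals the BM counts were 2 and 1. No member passed it in the same direction in both tissues, where 2.51% of 18859 symbols were higher and 13.1% lower in GFP+ cells. Of these members, Rpl10l, Rpl39l and Rpl3l were at an FPKM under 2 in every library, so that their folds cannot be interpreted. Close to the line were Rps4l in the FL (1.98-fold higher in GFP+ cells) and in the BM (1.99-fold lower in GFP+ cells), and Rps29 in the BM (1.88-fold higher). A limma fit with tissue as a block called 0 of 83 members for GFP state, where 0.0427% of 11707 symbols were called higher and 0.0683% lower, and 1 member, Rpl13a, had an unadjusted p under 0.05. None of the other limma settings called a member for GFP state.

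Rpl13a, a large subunit protein also known for a role in silencing inflammatory mRNAs, had the largest difference toward GFP+ cells in the FL, with an FPKM of 1722 and 692 in FL and 2084 and 1235 in BM cells. Both GFP+ libraries were above both GFP- libraries. Its values were identical in all 4 libraries to those of Snord33, a small nucleolar RNA in 1 of its introns, and of Mir5121, so the files do not tell these apart. limma's log2 estimate for GFP state was 1.03 ± 0.31 (SE), with an adjusted p of 0.735. After Rpl13a, Rps4l (1.98-fold), Rpl22 (1.69-fold), Rps15a (1.60-fold) and Rps10 (1.49-fold) were highest in FL GFP+ relative to FL GFP- cells. Rpl12 (313 and 426) and Rps21 (145 and 197) were higher in the GFP- library of the FL, also with equal FPKM totals.

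In the BM the members highest in GFP+ relative to GFP- cells were Rps27 (2.38-fold), Rpl37 (2.04-fold), Rps29 (1.88-fold), Rpl37a (1.88-fold) and Rpl38 (1.85-fold). All of them encode short proteins, and all stayed higher in GFP+ cells with equal FPKM totals. Rpl37 was at 63.2 and 55.0 in FL and 196 and 96.4 in BM cells. Rpl38, known for a role in translation of Hox mRNAs, was at 637 and 641 in FL and 1900 and 1029 in BM cells. In these genes the BM values stood apart by GFP state while the FL values differed by at most 1.15-fold. At the other end, Rpl3, Rps2, Rpl7l1 and Rpsa, the last of which is also a laminin receptor, were between 1.13-fold and 1.22-fold higher in BM GFP- cells, and Rps4l was 1.99-fold higher there.

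Among members, the BM difference fell with the median annotated transcript length. The median log2 difference of BM GFP+ against BM GFP- cells was 0.88 over the 5 members with a median annotated transcript of up to 400 bases, 0.49 over the 21 of 401 to 600 bases, 0.34 over the 39 of 601 to 1000 bases and 0.19 over the 14 of 1001 to 1500 bases. Over 82 members with a length, Pearson's r was -0.48 and Spearman's rho -0.50. With the longest annotated transcript in place of the median they were weaker, at -0.30 and -0.39. Other symbols at an FPKM of 100 or more in all 4 libraries had medians of 0.41 (3 symbols of up to 400 bases), 0.53 (46 symbols of 401 to 600 bases), 0.16 (177 of 601 to 1000), 0.034 (144 of 1001 to 1500), -0.058 (161 of 1501 to 2500), -0.019 (40 of 2501 to 4000) and 0.15 (4 of over 4000), so that the steps lay between 401 and 2500 bases. Over all other symbols that passed the filter there was no steady fall with length. Their medians were 0.38 (401 to 600 bases), 0.097 (601 to 1000), 0.030 (1001 to 1500) and -0.022 (1501 to 2500). They rose again to 0.10 (2692 symbols of 2501 to 4000) and 0.30 (1601 symbols of over 4000). Among members, the comparison of FL GFP+ with BM GFP+ cells showed the mirror image, with medians of -1.93, -1.14, -0.92 and -0.58 in the first 4 length classes. In FL GFP- against BM GFP- cells the member medians were -0.82, -0.78, -0.80 and -0.72, nearly flat, and in FL GFP+ against FL GFP- cells they were -0.018, 0.13, 0.20 and 0.25, an order opposite to that of the BM. Among members the steps with length were thus widest in the comparisons that hold the BM GFP+ library. The other symbols at an FPKM of 100 or more did step with length in FL GFP- against BM GFP- cells. Their medians there were -0.71 (401 to 600 bases), -0.59 (601 to 1000), -0.47 (1001 to 1500), -0.31 (1501 to 2500) and -0.058 (2501 to 4000). The part of transcript length in the values of short members such as Rps27, Rps29, Rps21 and Rpl38 was not tested.

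**Figure D5:**
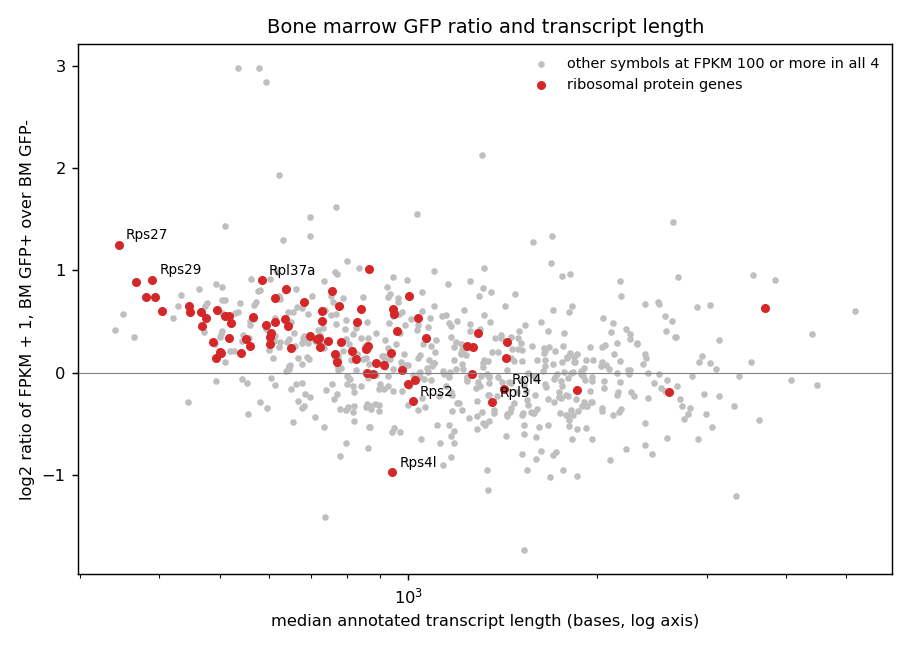
Log2 ratio of FPKM + 1 of BM GFP+ over BM GFP- cells against the median annotated transcript length (bases, log axis) for 82 ribosomal protein genes (red) and for other symbols at an FPKM of 100 or more in all 4 libraries (grey). Points of short transcripts, with Rps27, Rps29 and Rpl37a at the left, lie higher among members than those of long transcripts (Spearman's rho -0.50), and so do those of other symbols between 401 and 2500 bases; equal FPKM totals would lower all points by a like amount and not change the slope.

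Groups within the family with known roles were followed across the 4 libraries. The 20 members mutated in Diamond-Blackfan anaemia, Rps19 first among them (1070 and 1101 in FL and 2855 and 1983 in BM cells), were all lower in the FL in both GFP states on the deposited scale, with medians of -1.04 (GFP+) and -0.78 (GFP-) beside -1.02 and -0.77 for all members. Their median for BM GFP+ against BM GFP- cells was 0.51, and all 20 were above 0 there on the deposited scale. Rpl5 and Rpl11, which with the 5S RNA bind Mdm2 and so link ribosome assembly to p53, differed in level: Rpl5 was at 315, 273, 525 and 427 and Rpl11 at 850, 926, 2241 and 1581. Of the P stalk proteins, Rplp1 was at 1086, 991, 3054 and 1994 and Rplp2 at 379, 353, 932 and 620, while Rplp0 varied less. The ratio of BM GFP+ to FL GFP+ cells was thus 1.31 for Rplp0, 2.81 for Rplp1 and 2.46 for Rplp2.

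Ribosomal proteins that the symbol rule does not take showed both kinds of pattern. Fau, which encodes a ubiquitin-like protein fused to a small subunit protein, was at 724, 866, 3163 and 1679. Gnb2l1, which encodes the scaffold Rack1, was at 664, 667, 812 and 865 and so varied little.

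Genes of neighbouring pathways had tissue medians nearer to 0 than the members, on the deposited scale. Other scalings move all lists together, so which list lies nearer to 0 depends on the scaling. With equal FPKM totals the member medians were -0.39 (GFP+) and -0.34 (GFP-). The 14 translation factors and related genes with TOP mRNAs had medians of 0.20 (GFP+) and -0.30 (GFP-) for FL against BM, beside -1.02 and -0.77 for the members. Eef1a1, which delivers aminoacyl-tRNA, was at 4461 and 4495 in FL and 5343 and 6616 in BM cells. Tpt1, another TOP mRNA, was at 425, 326, 1003 and 694. Hnrnpa1, an RNA-binding protein with the largest difference in the other direction between the GFP+ libraries, was at 255, 241, 141 and 228. Of these 14 genes, 1 was past 2-fold lower in the FL in each GFP state and none past 2-fold higher. The 26 genes of ribosome biogenesis, which make rRNA and assemble subunits, had a median of 0.33 in GFP+ and -0.33 in GFP- cells for FL against BM, with 8 past 2-fold higher and 1 lower in the FL in GFP+ cells and 1 in each direction in GFP- cells. Nop56, a core protein of box C/D small nucleolar particles, was at 430, 248, 174 and 252, and Polr1b, the second subunit of RNA polymerase I, at 43.5, 34.9, 13.2 and 16.4. At the ends of the list between the GFP+ libraries were Polr1c, a further polymerase subunit, at 105, 34.0, 32.5 and 59.9, and Taf1a, a polymerase I initiation factor, at 0.106, 5.17, 10.8 and 4.52. For GFP+ against GFP- cells their median was 0.38 in the FL, with 23 of 26 above 0, and -0.31 in the BM, with 18 of 26 below 0. On the same deposited scale 51.8% of all symbols and 79.5% of the other abundant symbols were above 0 in the FL. In the BM these shares were 54.0% and 57.7%. Counts for this list with equal FPKM totals were not taken. limma called none of the translation factor or biogenesis genes for tissue or GFP state. The 77 mitochondrial ribosomal protein genes had medians of -0.47 and -0.58 for FL against BM, and the 14 genes of the proteasome core -0.37 and -0.52. The 9 regulators of TOP mRNAs that passed the filter, had medians of 0.48 and 0.30. Between the GFP+ libraries 3 of the 9 went the other way, most of all the kinase gene Mtor, at 0.054, 4.07, 7.56 and 3.31. The FL GFP+ value of Mtor is under 1 FPKM, so its ratios to that library are imprecise. For 7 genes of the p53 response to ribosomal stress, Trp53 itself among them, the medians were 0.00 and 0.087. The GFP+ median is the value of Phlda3, which was listed at 0 in both GFP+ libraries. Of the rest, 3 were above 0 and 3 below, from -1.79 (Cdkn1a) to 0.93 (Mdm4).

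Pseudogene copies bear on how well single members are measured, since the mouse genome holds many processed copies of these mRNAs. In the NCBI37/mm9 genome, 572 intronless copies with at least 95% identity over at least 90% of the reading frame were found for the 85 members searched, and 77 members had at least 1. Rpl21 had the most, with 54, and was among the lowest members, at 44.1 and 36.9 in FL and 97.6 and 76.8 in BM cells. Levels by number of copies were taken over members that passed the filter, without Rps19bp1 and Rps4l. The 4 with no copy had median FPKM of 697, 664, 1163 and 1072 in the 4 libraries. The 31 with 1 to 4 copies had 775, 692, 1708 and 1119, and the 27 with 5 to 9 copies had 850, 798, 1942 and 1422. For the 18 with 10 or more copies the medians were 552, 509, 943 and 762. Across 80 members Pearson's r between mean level and number of copies was -0.25 and Spearman's rho -0.07, as a description. Levels of members with many copies are uncertain, because reads that fit several places are divided among them. Rpl30 had values identical to those of Gm12191 in all 4 libraries, and these cannot be told apart.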

How the data were processed

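The authors prepared SMARTer libraries from sorted cells for the Illumina HiSeq2000, mapped reads with TopHat and calculated FPKM with Cufflinks 2.2.1 and Cuffnorm. Their methods name fragment-bias and multi-read correction, geometric normalization and the NCBI37/mm9 genome, whereas the submitters' processing notes name mm10. The deposited files hold 1 FPKM per symbol and library and no counts, so no count model was used, the reads behind a single value are not known (the mapped reads per library in the methods were not used), and strandedness of counting is not given. Values of 597 symbols are identical to those of another symbol.

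Folds used the deposited FPKM. Log2 differences used a pseudocount of 1, which understates changes of low genes, for symbols that reached 1 FPKM in 2 or more libraries. limma 3.58.1 (R 4.3.3, lmFit, eBayes with trend) was fitted to all such symbols with the other factor as a block and Benjamini-Hochberg adjustment. A run on simulated data used noise of equal spread for every gene and the same GFP change in both tissues. Real genes can disagree between tissues beyond such noise, so that run is no check of the p-values given here. With the block, the residual of a gene is how far its GFP difference disagrees between the tissues, or its tissue difference between the GFP states. eBayes moderates this residual by a trend over all symbols. The p-values thus do not measure a spread between replicates. Each group is 1 library, and groups were taken from the labels. Transcript lengths were from GENCODE vM1 and copies from blastn 2.17.0 against NCBI37/mm9, promoter windows from RefSeq (GRCm38.p6). The remaining steps used Python 3.11.15.

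Members and gene lists were chosen with earlier results of these data known. Genes were named by rule: for each contrast the 5 members with the largest and the 5 with the smallest difference at an FPKM of at least 10 in either library, the 5 highest and 5 lowest mean levels, the paralogue pairs, the P stalk, the 5S RNA partners, members next to the 2-fold line, and the ends of the other lists. Rps19, Rps6, Rpl38, Rpl35, Rpl4, Eef1a1, Nop56, Fau and Gnb2l1 were given as examples of their group after values were seen. Alternatives were other fold thresholds, pseudocounts, filters, scalings and limma settings.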

Additional observations from a re-analysis of the deposited data

Results flagged for a closer look

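In 25 of 83 members the GFP+ against GFP- difference had opposite signs in the FL and the BM, 15 of them negative in the FL and positive in the BM and 10 the reverse, while 57 were positive and 1 negative in both. Opposite signs were thus in 30.1% of members, beside 48.6% of all 11707 symbols tested and 44.2% of the other symbols at an FPKM of 100 or more in all 4 libraries. With equal FPKM totals the members with opposite signs were 45, and the share of all symbols on that scale was not taken. In 4 of these 25 the 2 tissues differed by at least 1 on the log2 scale. With 1 library per group the difference between tissues was not tested for any of them, and under equal FPKM totals both differences of a gene move downward. Rps19bp1 was at -2.87 (FL) and 0.49 (BM), and its FL GFP+ value is an FPKM of 0.529. Rps4l was at 0.98 (FL) and -0.98 (BM). Rps21 was at -0.44 (FL) and 0.74 (BM). Rps29 was at -0.20 (FL) and 0.91 (BM). Rps21 and Rps29 are among the short mRNAs whose BM GFP+ values were high, and the part of transcript length in them was not tested.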

How the results depend on the processing

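With equal FPKM totals the member medians of GFP+ against GFP- cells reversed, to -0.095 (FL) and -0.10 (BM), and with equal upper quartiles to -0.061 (FL), the BM median then being 0.24; these scalings divide by totals or quartiles that differ between libraries. The tissue medians kept their sign, at -0.39 (GFP+) and -0.34 (GFP-) with equal totals and -0.60 (GFP-) with equal upper quartiles. Counts past a fold threshold moved with the threshold: at 1.5-fold they were 4 higher in FL GFP+ cells, 25 higher and 1 lower in BM GFP+ cells, 2 higher in GFP+ cells of both tissues, and 68 (GFP+) and 72 (GFP-) lower in the FL, while at 4-fold they were 0, 2, 5 and 1 for FL higher, BM higher and the lower counts of the GFP+ and GFP- pairs. No share of all symbols was taken at 1.5-fold or 4-fold, so these counts have no background beside them. The same holds below for equal upper quartiles and for 1 added to each FPKM. With equal totals 2 members were higher and 1 lower in BM GFP+ cells, 8 (GFP+) and 1 (GFP-) lower in the FL, and with equal upper quartiles 1 lower in BM GFP+ cells and 3 (GFP-) lower in the FL. With 1 added to each FPKM, 1 was lower in FL GFP+ cells and 0 higher in FL GFP- than in BM GFP- cells. Without Rps19bp1, Rps4l and members with values identical to another symbol, an alternative chosen after seeing the data, 0 were higher in FL GFP+ than in FL GFP- cells and 0 higher in FL GFP+ than in BM GFP+ cells. The single limma call between tissues became 0 without the trend, without the block, with a pseudocount of 0.1, without the filter, with equal totals and with equal upper quartiles. The share of FPKM in members was 12.8% and 13.1% in FL and 15.5% and 16.3% in BM cells (GFP+ before GFP-) without microRNA and small nucleolar RNA symbols, and 14.7%, 15.1%, 21.4% and 19.7% without the 100 highest other symbols, which places BM GFP+ above BM GFP-. Of the alternative values, 99 stayed within the limits set for no change, 38 moved and 3 reversed. Of the 99, 32 were paralogue shares with 0.1 added to both FPKM. No paired analysis was possible because each group holds 1 library and the labels give no replicate numbers shared between groups; the limma fits blocked on tissue or GFP state instead, and leaving out a library left no group or no residual degree of freedom to compare.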
